A study of Homo sapiens with 9 samples.

Results

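The immediate early AP-1 and EGR genes described here are the 4 FOS family genes FOS, FOSB, FOSL1 and FOSL2, the 3 JUN family genes JUN, JUNB and JUND, and the early response genes EGR1, IER2 and IER5. They were chosen by name. All 10 were found among the 19869 genes of the table for the RUNX3 mutant line, through Ensembl identifiers. In the separate table of 24331 genes for the other lines, which carries locus identifiers of its own, 1 of the 10, IER5, could be named.

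RNA was sequenced from 3 stable lines of NCI-H460, a human large cell lung cancer line taken from a pleural effusion, at passage 11. The control line H460 has the genotype label RUNX3 inactivation, H460-ERT2-RUNX3 WT carries an inserted wild-type RUNX3 fused to ERT2, the tamoxifen-responsive ligand-binding domain of the estrogen receptor, and H460-ERT2-RUNX3-MT(K94/171R), called K94/171R below, carries the same fusion with lysines 94 and 171 of RUNX3 changed to arginine. The study describes H460 as a line with oncogenic K-RAS, and the mutant as a RUNX3 that does not bind BRD2. After 24 h without serum the cells were given 10% serum with 1 uM 4-OHT, the active form of tamoxifen, for 0, 8 or 16 h. The 0 h library of each line is therefore the starved state, the later libraries received serum and 4-OHT together, and the effects of serum and of 4-OHT cannot be told apart within a line. Whether a line is 1 clone or a pool was not given in the sources used here. There was 1 library per condition, 9 in all, so no value below has a replicate error, no test was possible and no p-value is given.

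Immediate early genes are switched on within minutes of a stimulus such as serum, without new protein synthesis, and their mRNAs are usually short-lived. FOS proteins pair with JUN proteins through a leucine zipper to form AP-1, a transcription factor that binds the motif TGACTCA, while JUN proteins can also pair among themselves. EGR1 is a zinc finger transcription factor of the same early wave, and growth factor signals reach FOS and EGR1 largely through RAS, ERK and the serum response factor SRF, which binds the CArG box. The 8 h and 16 h libraries were taken long after this first wave, so the values compare the starved state with later states rather than with the early peak.

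In K94/171R cells the FOS level was lower at both times after serum and 4-OHT than in the starved state, FOSB was lower with it, and FOSL1 was higher. FOS was 3.77-fold lower at 8 h and 3.25-fold lower at 16 h. The 3 JUN family genes, FOSL2, IER2 and EGR1 were within a log2 change of 0.6 of their starved level at both times, with EGR1 lower at both, and IER5 was higher at 16 h. Levels are given as FPKM, sequenced fragments scaled to the length of the transcript and to all mapped fragments of the library, which can be set side by side between genes. A change is the log2 ratio of FPKM plus 0.05 between libraries of the same line. In bulk RNA, fewer cells that express a gene and less RNA per cell cannot be told apart.

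Promoter sequence is shown for the 3 of the 10 genes that hold a CArG box in the 500 bases before their start, because 2 of them, FOS and FOSB, are the members with the largest lower values, while EGR1, with 5 such boxes, differed less. Sequence is from the GRCh37 genome, plus strand, with the CArG boxes in capitals, and starts are those of the canonical transcripts. The FOS stretch is chr14:75745172-75745271, 359 to 260 bases before the start. The FOSB stretch is chr19:45970935-45971034, 319 to 220 bases before the start. The EGR1 stretches are chr5:137800705-137800858, 463 to 310 bases before the start, and chr5:137801018-137801139, 150 to 29 bases before the start.
FOS: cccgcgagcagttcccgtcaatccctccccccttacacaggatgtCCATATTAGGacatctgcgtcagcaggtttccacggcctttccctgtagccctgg
FOSB: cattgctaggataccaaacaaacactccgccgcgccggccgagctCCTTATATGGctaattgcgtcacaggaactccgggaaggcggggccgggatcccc
EGR1 distal: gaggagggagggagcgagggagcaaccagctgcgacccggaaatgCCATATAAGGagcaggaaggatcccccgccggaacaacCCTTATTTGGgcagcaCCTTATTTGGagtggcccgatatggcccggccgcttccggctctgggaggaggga
EGR1 proximal: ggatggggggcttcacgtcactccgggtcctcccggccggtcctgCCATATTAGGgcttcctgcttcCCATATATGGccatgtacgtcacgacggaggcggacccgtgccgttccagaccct
On both strands of the 500 bases before the start, 2.41% of 19819 protein-coding genes held a CArG box. The AP-1 motif TGACTCA was in 0 of the 10 windows, against 6.05% of all, and the related motif TGACGTCA was in those of FOSB and JUND, against 2.89%. The EGR motif GCGNGGGCG was in FOSB, JUND and EGR1, against 15.4%, and the ETS motif CCGGAAG in EGR1 and IER2, against 14.9%. The RUNX motif TGNGGT was in 6 of the 10, namely FOSB, FOSL1, FOSL2, JUN, JUNB and JUND, against 62.3% of all promoters. None of the matches of different motifs in these 10 windows overlapped. These matches describe the letters of the windows only.

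FOS, the gene that gives the family its name, lies at chr14:75745529-75748933 on the plus strand, with 4 exons in its canonical transcript. Its level was 45.4 FPKM at 0 h, 12.0 FPKM at 8 h and 14.0 FPKM at 16 h. The starved library thus stood apart, and the later ones lay close to each other. The log2 changes were -1.91 at 8 h and -1.70 at 16 h, and both use the same 0 h library. Counted from the lowest change among genes with at least 1 FPKM in the higher library, FOS was number 58 of 11252 at 8 h and number 51 of 11325 at 16 h. Between 8 h and 16 h it differed by 0.22.

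FOSB, a close relative of FOS that also activates transcription through AP-1, lies at chr19:45971253-45978437 on the plus strand, where it overlaps ERCC1 on the other strand with no shared exon bases. Its level was 1.27 FPKM at 0 h, 0.501 FPKM at 8 h and 0.491 FPKM at 16 h, the lowest of the 10 genes in every library. Its log2 changes were -1.26 and -1.29, the order of libraries being that of FOS except that its later values were nearly equal. Since the level was near 1 FPKM, these changes depend on the pseudocount, and with 1 FPKM in place of 0.05 they were -0.60 and -0.61. The changes of FOS and FOSB lay at a Euclidean distance of 0.76 over the 8 h and 16 h changes, against 3.67 for FOS and FOSL1, the farthest pair of the 10.

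FOSL1 codes for a FOS-related antigen that lacks the strong activation domain of FOS, and lies at chr11:65659520-65668044 on the minus strand. Its level was 10.2 FPKM at 0 h, 20.4 FPKM at 8 h and 15.0 FPKM at 16 h. It was the only one of the 4 FOS family genes with a higher value than at 0 h by more than 0.5 in log2, with changes of 0.99 at 8 h and 0.55 at 16 h. At 8 h the change was number 153 of 11252 from the highest, and at 16 h number 648 of 11325. FOSL2, the other FOS-related antigen, at chr2:28615315-28640184 on the plus strand, had 10.7 FPKM, 10.6 FPKM and 11.5 FPKM at 0, 8 and 16 h. Its highest and lowest libraries differed 1.09-fold, the smallest spread of the 10 genes.

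**Figure D1:**
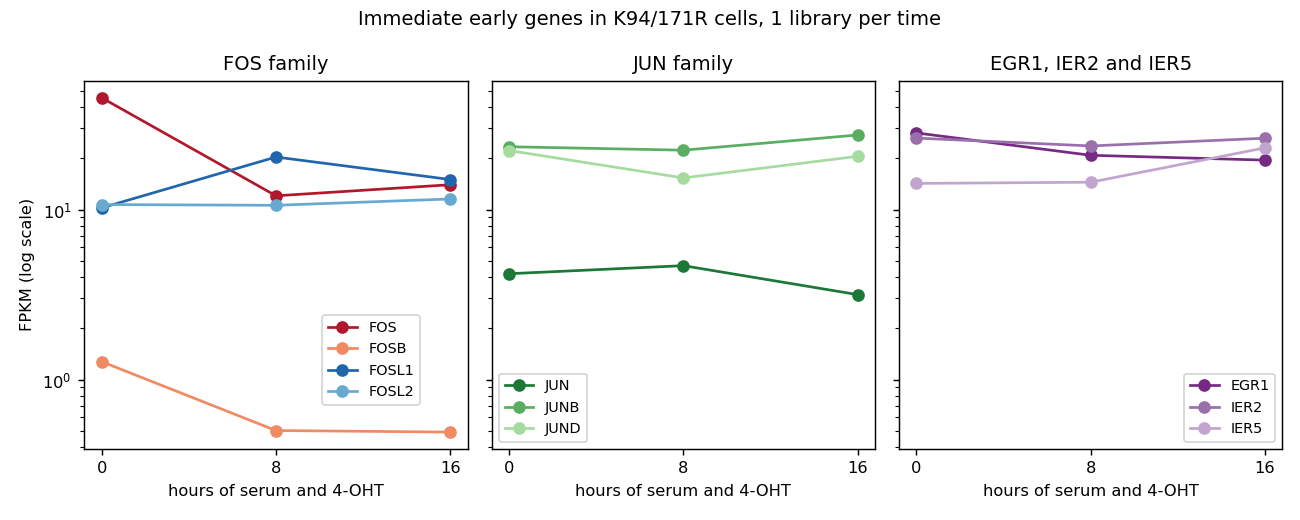
FPKM (log scale) of the 10 genes in K94/171R cells at 0, 8 and 16 h of serum and 4-OHT, with 1 point for each library. FOS starts at 45.4 FPKM and lies at 12.0 and 14.0 FPKM later, FOSL1 moves from 10.2 to 20.4 and 15.0 FPKM, and the JUN family keeps its order of JUNB, JUND and JUN.

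JUN, the strongest activator of its family, is a gene of 1 exon at chr1:59242517-59249720 on the minus strand. Its level was 4.19 FPKM at 0 h, 4.68 FPKM at 8 h and 3.16 FPKM at 16 h, with log2 changes of 0.16 and -0.40. JUNB, a weaker activator than JUN on many targets, lies at chr19:12902300-12904129 on the plus strand and had 23.4 FPKM, 22.3 FPKM and 27.4 FPKM. Its exon overlaps those of HOOK2 on the opposite strand by up to 259 bases, and HOOK2 had 2.14 to 3.73 FPKM. Whether counting used the strand was not given in the sources used here, and the part of such overlaps in the values was not tested. JUND, the family member typical of resting cells, at chr19:18390504-18392432 on the minus strand, had 22.2 FPKM, 15.3 FPKM and 20.6 FPKM. It was lowest at 8 h, with a log2 change of -0.53 there and -0.11 at 16 h. JUNB was above JUND and JUND above JUN in all 3 libraries.

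EGR1, at chr5:137801168-137804992 on the plus strand, had 28.2 FPKM at 0 h, 20.8 FPKM at 8 h and 19.5 FPKM at 16 h. The starved library was again the highest, and the log2 changes were -0.44 and -0.53, number 1384 of 11252 and number 569 of 11325 from the lowest. The other EGR genes were at most 0.0923 FPKM in any library, so EGR1 was nearly all of the EGR mRNA listed. IER2, which codes for a small nuclear protein and lies at chr19:13261225-13265725 on the plus strand, had 26.3 FPKM, 23.7 FPKM and 26.3 FPKM. It shares up to 629 exon bases with a long noncoding RNA on the opposite strand. Its level at 16 h was that at 0 h, with a log2 change of -0.002. IER5, which codes for a nuclear protein known to act on the heat shock factor HSF1, lies at chr1:181057836-181062036 on the plus strand. It had 14.2 FPKM, 14.5 FPKM and 23.1 FPKM, with log2 changes of 0.02 at 8 h and 0.69 at 16 h, the latter number 380 of 11325 from the highest. It was the highest of the 10 changes at 16 h.

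Of the 10 members, 0 passed a log2 change of 2 in either direction at 8 h, 16 h or between these times, where 1.49%, 1.32% and 1.5% of all 19869 genes of the table did. Among genes with at least 1 FPKM in the higher library, 0.613%, 0.512% and 0.488% did. At a log2 change of 1, FOS and FOSB were lower at both times and no member was higher, FOSB no longer passing with a pseudocount of 1 FPKM. At 8 h that is 2 of 10, where 4.53% of all genes, and 2.49% of the 11252 genes with at least 1 FPKM in the higher library, were lower by as much. At 16 h it is again 2 of 10, against 3.36% of all genes and 1.27% of the 11325 with at least 1 FPKM. Higher values past 1 were seen for 2.77% of all genes at 8 h and 3.11% at 16 h. FOSL1 at 8 h, at 0.99, passed 1 when libraries were brought to the same FPKM sum, at 1.03. Between 8 h and 16 h, 0 of 10 passed 1, against 7.48% of all genes and 4.19% of those with at least 1 FPKM in the higher library. All 10 genes had at least 1 FPKM in the higher library of the comparisons with 0 h, and 9 of 10 in that of 16 h with 8 h, FOSB being the exception.

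The members other than FOS and FOSB mostly lay inside the middle 95% of genes with at least 1 FPKM, but several were toward its edges. At 16 h EGR1 was at percentile 5.02, JUN at 8.98, FOSL1 at 94.3 and IER5 at 96.7. JUND, IER2, FOSL2 and JUNB were at percentiles 35.3 to 79.6. At 8 h, 6 of 10 members were within 0.5 of no change, against 80.4% of genes with at least 1 FPKM, and at 16 h 5 of 10 were, against 87.5%. The median change of the 10 was -0.11 at 8 h and -0.06 at 16 h, against 0.01 and -0.01 over the genes with at least 1 FPKM. At 8 h 7 members were lower and 3 higher, and at 16 h 6 were lower and 4 higher, but the signs of FOSL2 at 8 h and of IER2 at 16 h turn when libraries are brought to the same FPKM sum. The middle 95% of genes with at least 1 FPKM spanned -1.0 to 0.81 at 8 h and -0.74 to 0.80 at 16 h. FOS and FOSB lay below this span at both times and FOSL1 above it at 8 h, while the other 7 lay within it at both times.

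**Figure D2:**
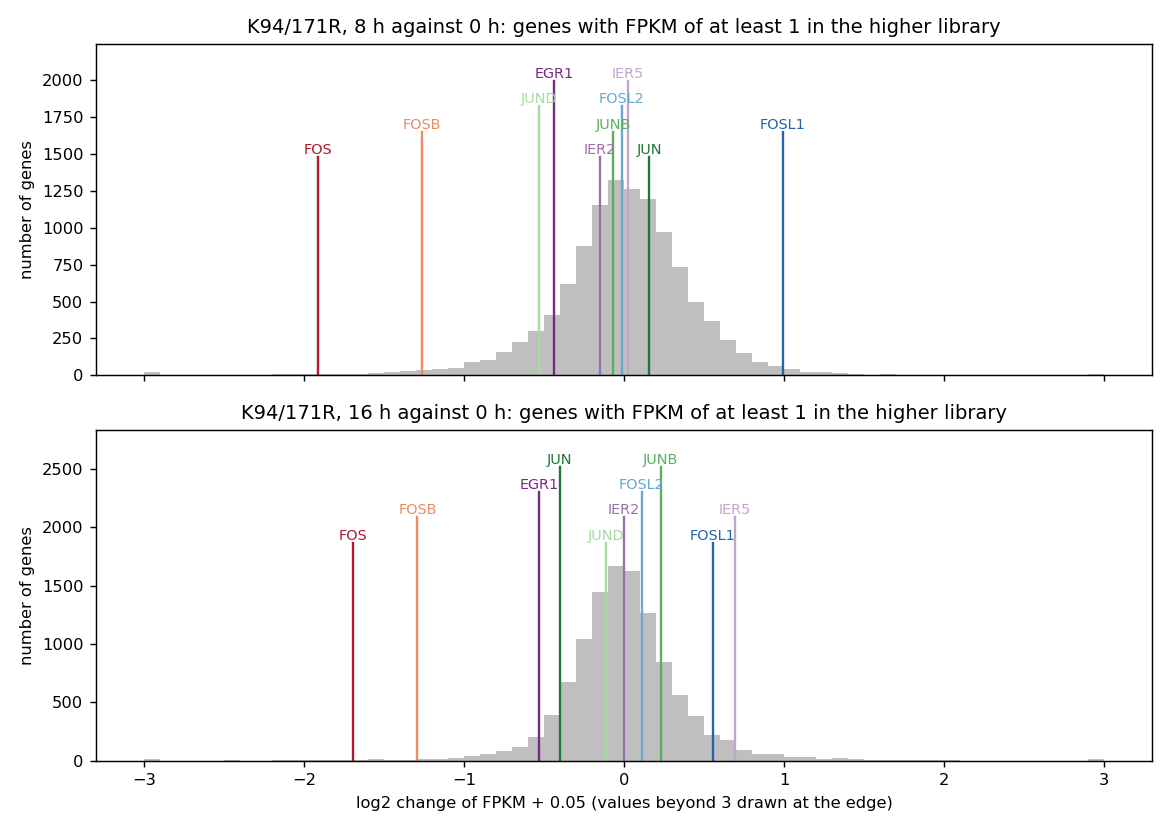
Histograms of the log2 change of FPKM plus 0.05 in K94/171R cells at 8 h (top) and 16 h (bottom) against 0 h, over the 11252 and 11325 genes with at least 1 FPKM in the higher library, with a line for each of the 10 genes. FOS at -1.91 and -1.70 and FOSB at -1.26 and -1.29 stand on the lower tail, and FOSL1 at 0.99 stands on the upper tail at 8 h.

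The order of levels differed between the starved and the later libraries. At 0 h FOS was first, followed by EGR1, IER2, JUNB, JUND, IER5, FOSL2, FOSL1, JUN and FOSB. At 8 h FOS was the seventh and FOSL1 the fourth, and IER2, JUNB and EGR1 led. At 16 h JUNB and IER2 led, IER5 was the third, and FOS was again the seventh. FOS exceeded 90.7% of the genes of the table at 0 h and 74.6% at 16 h. With 1 library a time, neighbours such as EGR1 and IER2 at 0 h, or FOSL2 and FOSL1 at 0 h, cannot be said to differ.

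The makeup of the AP-1 genes was followed as shares of the summed FPKM of the 7 FOS and JUN family genes. The sum was 117 FPKM at 0 h, 85.9 FPKM at 8 h and 92.2 FPKM at 16 h. FOS made up 38.7% of it at 0 h, 14.0% at 8 h and 15.2% at 16 h. FOSL1 made up 8.70%, 23.7% and 16.3%, so that the ratio of FOS to FOSL1 went from 4.44 to 0.591 and 0.932. Within the FOS family, FOS thus had 67.2% of the FPKM when cells were starved, and FOSL1 had the largest part later, 46.8% at 8 h and 36.6% at 16 h.

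The FOS family as a whole had 67.6 FPKM at 0 h, 43.5 FPKM at 8 h and 41.0 FPKM at 16 h. The JUN family had 49.8 FPKM, 42.4 FPKM and 51.2 FPKM. The FOS family therefore held 57.6%, 50.7% and 44.5% of the sum, and was under the JUN family at 16 h. By summed log2(FPKM + 1) its share there was 51.7%. That sum is not an amount of mRNA, and it grows with the number of genes, of which the FOS family has more. JUNB was the largest JUN family gene throughout, with 47.0%, 52.7% and 53.6% of its family. The shares of summed FPKM are shares of mRNA, and protein was not measured.

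**Figure D3:**
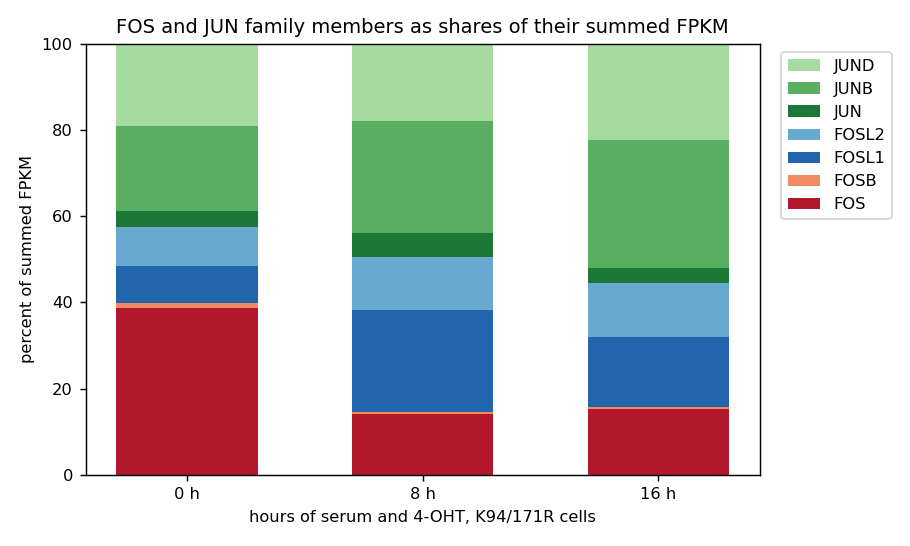
Stacked bars of the 7 FOS and JUN family genes as percent of their summed FPKM in K94/171R cells at 0, 8 and 16 h of serum and 4-OHT, 1 library each. The FOS segment goes from 38.7% to 14.0% and 15.2%, and the FOSL1 segment from 8.70% to 23.7% and 16.3%.

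The genes around these 10 were described through 6 lists holding 77 different genes, all listed in the K94/171R table and 67 of them with at least 1 FPKM. Of the 28 other immediate early genes, 25 had at least 1 FPKM, and at 8 h 0 of them passed a log2 change of 1, where 1.27% of all genes with at least 1 FPKM were higher and 2.49% lower by as much. At 16 h 2 of 25 were higher by at least 1, against 1.47% of all such genes, and 0 lower. These were NR4A1, an orphan nuclear receptor, with 14.8 FPKM, 19.5 FPKM and 33.8 FPKM at 0, 8 and 16 h, and BTG2, an antiproliferative protein, with 16.0 FPKM, 9.49 FPKM and 34.1 FPKM. Their changes at 16 h were 1.18 and 1.09. The median over the list was 0.05 at 8 h and 0.19 at 16 h, and its lowest changes were -0.94 at 8 h, for CTGF, and -0.79 at 16 h, for ATF3. None of the 25 was as far below its starved level as FOS.

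Among 12 other proteins with a basic leucine zipper that can pair with FOS or JUN, 9 had at least 1 FPKM. BATF2 was lower, with 1.19 FPKM at 0 h, 0.247 FPKM at 8 h and 0.308 FPKM at 16 h, which are changes of -2.07 and -1.80. BATF3 was higher, with 0.569 FPKM, 1.95 FPKM and 1.62 FPKM, which are changes of 1.69 and 1.43. Both code for short zipper proteins, and both were near 1 FPKM. MAF, under 1 FPKM throughout, was listed at 0.310 FPKM, 0.0174 FPKM and 0.452 FPKM. The medians of this list were -0.35 at 8 h and -0.14 at 16 h.

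Among the upstream genes none passed a log2 change of 1. All 7 of SRF, its cofactors and CREB1 had at least 1 FPKM, and 7 of 7 at 8 h and 6 of 7 at 16 h were within 0.5. SRF itself had 9.51 FPKM, 6.93 FPKM and 6.36 FPKM, with changes of -0.45 and -0.58, the lowest of its list at 16 h. CREB1, which binds the motif TGACGTCA, was next at 16 h, with 16.4 FPKM, 11.6 FPKM and 14.3 FPKM and a change of -0.20. Of the 15 kinases that lead to FOS, JUN and EGR1, 11 of 15 were within 0.5 at 8 h and 14 of 15 at 16 h, against 80.4% and 87.5% of all genes with at least 1 FPKM. At 8 h MAPK3 at -0.58, MAPK8 at -0.53, RPS6KA4 at 0.60 and RPS6KA5 lay outside. At 16 h the exception was RPS6KA5, a kinase of CREB and histone H3, with 1.50 FPKM, 0.815 FPKM and 0.834 FPKM and changes of -0.84 and -0.81. RPS6KA1 was next at 16 h, with a change of 0.41. The EGR co-repressors NAB1 and NAB2 were within 0.5 at both times, with 0.16 and 0.26 at 16 h.

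Among 16 genes known as AP-1 targets, 12 had at least 1 FPKM, and their median change was -0.02 at 8 h and 0.01 at 16 h. Of these 12, 2 were higher by at least 1 at 8 h and 1 at 16 h, against 1.27% and 1.47% of all genes with at least 1 FPKM. None of the 12 was lower by as much, against 2.49% and 1.27%. The metallothionein MT2A was higher, with 139 FPKM, 589 FPKM and 344 FPKM and changes of 2.09 and 1.31. The heme oxygenase HMOX1 passed 1 at 8 h only, with 36.7 FPKM, 74.5 FPKM and 24.7 FPKM. The cytokine CXCL8 had 145 FPKM, 165 FPKM and 243 FPKM, a change of 0.75 at 16 h. The collagenase MMP1 was at most 0.0363 FPKM in K94/171R, and MMP10 was listed at 0.309 FPKM, 0.174 FPKM and 0. No list is set against the others by a test, and the same 0 h library stands behind all of these changes.

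**Figure D4:**
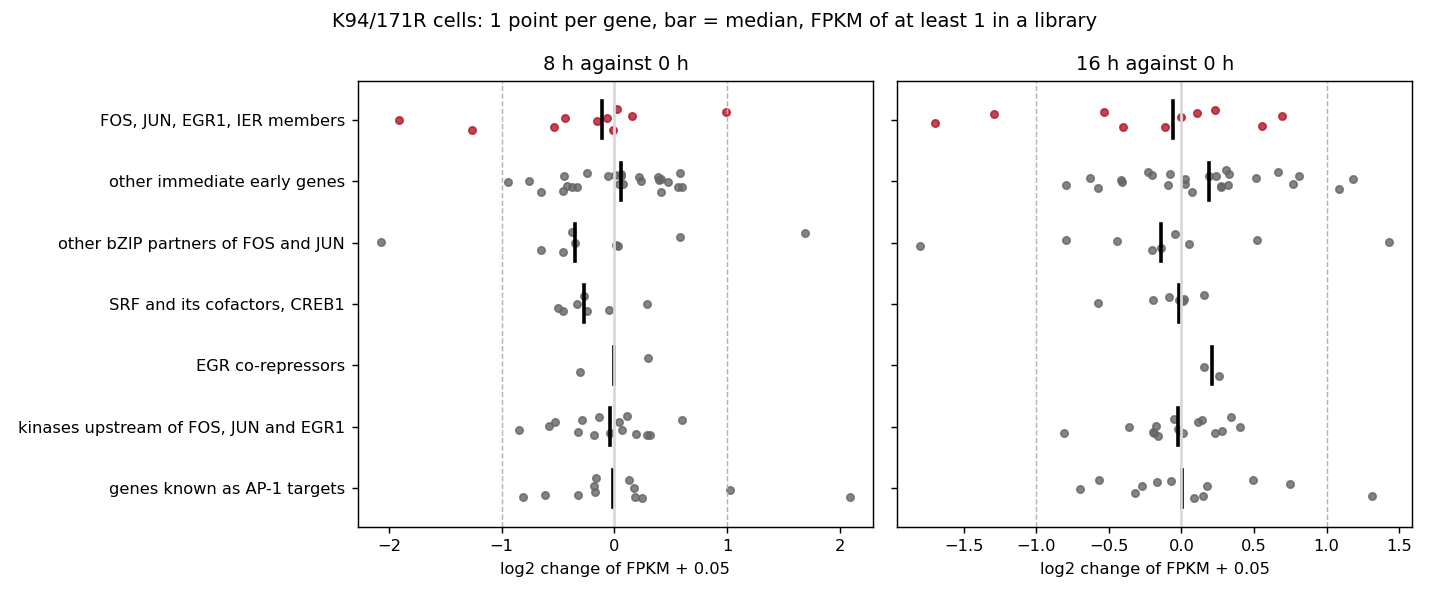
Log2 change of FPKM plus 0.05 in K94/171R cells at 8 h (left) and 16 h (right) against 0 h, in 7 groups. There is 1 point for each gene with at least 1 FPKM in any K94/171R library. A black bar marks the median, and dashed lines mark a change of 1 in either direction. FOS and FOSB lie below -1 in both panels, where BATF2 is the only other gene, and NR4A1, BTG2, BATF3 and MT2A lie above 1 at 16 h.

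By the distance over both changes, the genes nearest to FOS among 10753 with at least 1 FPKM in all 3 K94/171R libraries included LSS, SLC39A10, HSD17B7 and MVK, at 0.16 to 0.38. LSS, lanosterol synthase, had 41.4 FPKM at 0 h, 11.5 FPKM at 8 h and 11.5 FPKM at 16 h. The zinc transporter gene SLC39A10 had 39.0 FPKM, 9.77 FPKM and 15.3 FPKM. These 4 were highest in the starved library, as FOS was, which follows from their choice by distance to FOS. The likeness rests on 3 libraries.

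IER5 could be followed in all 3 lines, because the study's own gene list from these data names it. Its ranks among all genes of that table, given below, are therefore description only. In H460 its level was 13.6 FPKM at 0 h, 17.3 FPKM at 8 h and 15.0 FPKM at 16 h. In H460-ERT2-RUNX3 WT it was 18.7 FPKM, 23.8 FPKM and 61.7 FPKM, and in K94/171R 14.2 FPKM, 14.5 FPKM and 23.1 FPKM. The wild-type line at 16 h had the highest of the 6 values of its table. Levels are not compared between K94/171R and the other lines. Their tables were made separately, and the table of H460 and H460-ERT2-RUNX3 WT gives IER5 a locus of 2342 bases, chr1:181057638-181059979 in hg19, where the annotated gene given above spans 4201 bases.

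Within lines, the log2 change of IER5 at 8 h was 0.35 in H460, 0.34 in H460-ERT2-RUNX3 WT and 0.02 in K94/171R. At 16 h it was 0.14, 1.72 and 0.69. The wild-type level at 16 h was 3.30-fold that at 0 h, and that of K94/171R 1.62-fold. The change of 1.72 passed 1 where 20.6% of 11930 genes with at least 1 FPKM were higher by as much in that line, and it was number 1139 of them from the highest. The change of 0.14 in H460 was number 4185 of 11592, where 2.48% were higher by 1. The 16 h library of H460-ERT2-RUNX3 WT had the largest FPKM sum of its table, and with equal sums the change of IER5 was 1.22, all changes in that comparison being 0.49 lower. With libraries scaled instead to a median ratio to 0 h of 1 over expressed genes, it was 1.72.

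Set against the change in H460, that of IER5 in the wild-type line was higher by 1.57 at 16 h, number 1279 from the highest of 12345 genes with at least 1 FPKM in a library of that table, and equal to within 0.01 at 8 h. In the starved state IER5 was already higher by 0.46 in the wild-type line than in H460. The later libraries of these lines share their own 0 h library. With 1 library each, a difference between lines and one between libraries cannot be told apart.

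**Figure D5:**
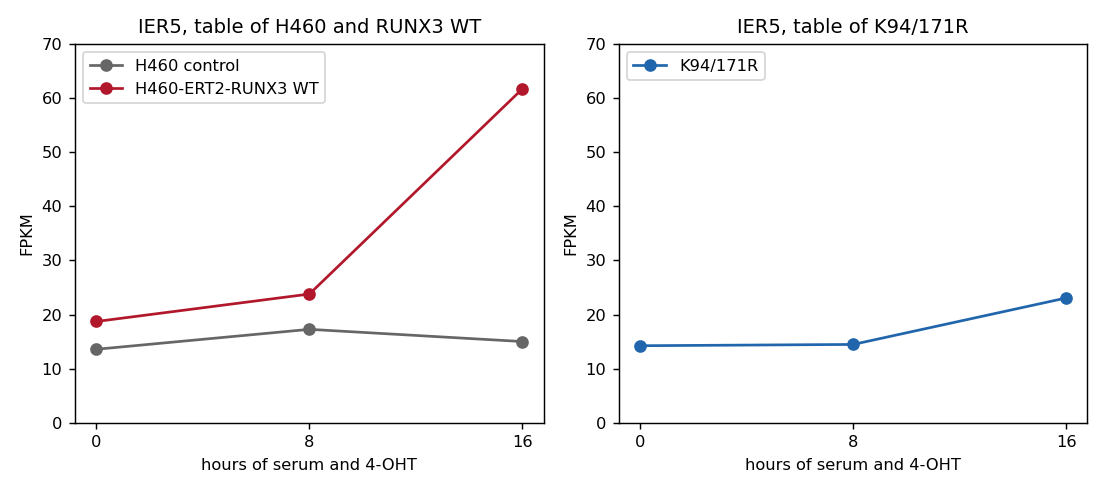
FPKM of IER5 at 0, 8 and 16 h of serum and 4-OHT, 1 library per point, in H460 and H460-ERT2-RUNX3 WT (left, from 1 table) and in K94/171R (right, from the other table). The wild-type line reaches 61.7 FPKM at 16 h, where H460 has 15.0 FPKM, and K94/171R goes from 14.5 to 23.1 FPKM between 8 h and 16 h.

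By the distance over the 4 changes of H460 and H460-ERT2-RUNX3 WT, the nearest to IER5 among 508 named genes with at least 1 FPKM in all 6 libraries were NBPF16, PLEKHM2, OTUD3, NBPF9 and MDM4, at 0.23 to 0.33. PLEKHM2 had 7.70 FPKM, 10.1 FPKM and 9.99 FPKM in H460, and 7.56 FPKM, 9.46 FPKM and 24.3 FPKM in the wild-type line. MDM4, a regulator of p53, had 5.58 FPKM, 6.29 FPKM and 6.36 FPKM in H460, and 5.98 FPKM, 9.21 FPKM and 19.8 FPKM in the wild-type line. All 5 were highest in the wild-type line at 16 h, which follows from their choice by distance to IER5. Only genes that the study listed could be searched. The NBPF genes are nearly identical copies whose reads may have been split, so their values are uncertain.

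Of the 77 list genes, 6 could also be named in the table of H460 and H460-ERT2-RUNX3 WT. ATF3, a zipper protein that pairs with JUN, had 1.52 FPKM, 1.69 FPKM and 4.13 FPKM in H460 and 2.95 FPKM, 46.2 FPKM and 235 FPKM in the wild-type line, while K94/171R had 2.41 FPKM, 1.85 FPKM and 1.37 FPKM. BTG2 had log2 changes of 0.23 in H460, 1.84 in the wild-type line and 1.09 in K94/171R at 16 h. CYR61, a secreted matrix protein, had 33.5 FPKM, 4.01 FPKM and 5.00 FPKM in the wild-type line, against 16.4 FPKM, 17.5 FPKM and 16.8 FPKM in H460, and its change at 16 h in K94/171R was -0.63. The AP-1 target MMP1 was listed at 0.127 FPKM, 0.193 FPKM and 505 FPKM in the wild-type line and at most 0.246 FPKM in H460. The kinases MAPKAPK2 and RPS6KA1 had changes of 1.31 and -1.06 at 16 h in the wild-type line, -0.02 and 0.63 in H460, and -0.05 and 0.41 in K94/171R. These genes could be named because the study listed them, so they are not a sample of their lists.

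The libraries gave FPKM sums of 554359 to 780952, with 10961 to 11367 genes of at least 1 FPKM each. FPKM holds no read totals, so the depth is unknown. The commonest ratio between low FPKM values put the relative depth at 1.00 and 0.99 for K94/171R at 8 h and 16 h against 0 h. Only 43 of 1687 and 53 of 1653 low genes had that ratio, so this estimate is weak. In the other table the relative depth was 0.96 to 1.17 against H460 at 0 h. In K94/171R the cytokeratins KRT8, KRT18 and KRT19 were at 309 to 698 FPKM, while the epithelial markers EPCAM and CDH1 were at most 0.313 FPKM. KRT18 went from 593 FPKM at 0 h to 353 FPKM at 16 h, and its part in the results was not tested. Of the markers of other cell types, the summed levels were 3.18 to 5.62 FPKM for leukocytes, nearly all CD14, with PTPRC at most 0.0155 FPKM and CD3E at 0, 7.77 to 11.2 FPKM for fibroblasts, mainly COL3A1, and at most 1.09 FPKM for mesothelium and 0.0284 FPKM for endothelium, where only VWF was matched. RUNX3 itself was at 2.12 FPKM, 0.712 FPKM and 2.11 FPKM and ESR1 at 3.22 FPKM, 2.04 FPKM and 3.61 FPKM, and whether reads of the inserted fusion were counted in them was not given in the sources used here.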

How the data were processed

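The study used a stranded mRNA kit (TruSeq) and a NextSeq500 sequencer. By its methods and the submitters' processing notes, Cutadapt trimmed the reads, STAR 2.5.0 aligned them to hg19, and the authors deposited FPKM per gene, for which the notes name Cufflinks and Cuffdiff 2.2.1. The annotation, the use of strand and read totals were not given in the sources used here. FPKM are already scaled by length and library, so reads behind a value are unknown.

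Of the 19869 identifiers of the K94/171R table, 19494 matched a symbol, and 1145 of the 24331 in the other table could be named, from the study's own gene list. Changes were log2((FPKM + 0.05)/(FPKM + 0.05)) within a line (Python 3.11.15, numpy 2.4.6, pandas 2.3.3, matplotlib 3.10.9), for all genes of a table, with no filter unless at least 1 FPKM in the higher library is stated. The threshold of 2 is that of the study. With 1 library per condition no test was run. The formula and threshold of the log2 change were checked on simulated data, made from 0 h values of at least 1 FPKM by set changes without noise. That check does not cover noise between libraries, low values, gene names, shares or motifs. Alternatives were pseudocounts of 1 and 0.01, equal FPKM sums, a median ratio of 1, a threshold of 1, a filter at 1 FPKM and shares of log2 values. Named were the 10 members, list genes past 2, the 2 largest changes of each list at 16 h, list genes nameable in the other table and the 5 nearest genes, of which 1 for FOS is not reported here. HMOX1, CTGF, MAPK3, MAPK8, RPS6KA4, HOOK2 and the marker genes given singly were named after their values were seen. The members and lists were chosen with earlier results of these data known. Loci and promoters are from GRCh37 with the GENCODE annotation lifted to it. No per-sample column was left unused (0).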

Additional observations from a re-analysis of the deposited data

Results flagged for a closer look

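Among the 6 list genes that could be named in every line, ATF3, BTG2, RPS6KA1 and MMP1 had changes against 0 h in opposite directions between lines. Each side differed from 0 h by at least 0.2. How many of all genes meet this rule was not computed, and the 6 could be named because the study listed them. CYR61 and, at 16 h, MAPKAPK2 also differed in sign between lines, but with a change under 0.2 on one side. With 1 library per condition these differences were not tested. For ATF3 the log2 change at 8 h was 3.94 in H460-ERT2-RUNX3 WT and -0.37 in K94/171R, and at 16 h it was 6.29 and -0.79, with 1.41 in H460. For BTG2 it was -0.75 in K94/171R and 0.43 in H460 at 8 h. For RPS6KA1 the 8 h values were -0.47 in the wild-type line and 0.51 in H460, and those at 16 h were -1.06 in the wild-type line, 0.41 in K94/171R and 0.63 in H460. For MMP1 it was 11.48 in H460-ERT2-RUNX3 WT at 16 h, -0.79 in K94/171R, where the gene is listed at 0, and -0.41 in H460. All 3 start from levels under 0.2 FPKM, so the size of each change depends on the pseudocount.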

How the results depend on the processing

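With 1 library per condition none could be left out. No paired analysis was possible because the labels carry no replicate numbers and each condition has 1 library. No member passed a log2 change of 2 under any alternative that kept this threshold. At a threshold of 1 there were 2 members at 8 h and 2 at 16 h in place of 0, and 0 between 8 h and 16 h. With equal FPKM sums FOSL1 also passed 1 at 8 h, at 1.03 against 0.99. Of the 30 changes of the members in K94/171R, 28 moved by under 0.2 with a pseudocount of 1 FPKM, the others being those of FOSB, at -0.60 and -0.61, which leaves FOS alone past 1 at each time. All 30 did with a pseudocount of 0.01, with equal FPKM sums and with a median ratio of 1. Signs turned only for changes under 0.03 in size, namely FOSL2 at 8 h (0.02), IER2 at 16 h (0.09) and FOSB between 8 h and 16 h (0.02) with equal sums, and IER2 at 16 h (0.01) with the median ratio. The change of IER5 in H460-ERT2-RUNX3 WT at 16 h was 1.22 with equal sums, against 1.72, and 1.72 with a median ratio of 1. The FOS family share at 16 h was 51.7% by summed log2(FPKM + 1), against 44.5%. Without replicates, the spread between libraries of one condition is unknown, and values under 1 FPKM, such as those of FOSB after 0 h, rest on few reads.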
